A study of Homo sapiens with 12 samples.

Results

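The comparison set macrophages polarized toward M1 against macrophages polarized toward M2 while both carried monocyclohexyl phthalate (MCHP). Its members were chosen by their column labels: 3 M1 libraries and 3 M2 libraries exposed to MCHP, 6 of the 12 libraries of the series. The cells were PPRE-eGEP-THP-1, made from THP-1, an established line of human monocytic leukaemia. In all 12 libraries they had first become adherent over 48 h in the phorbol ester PMA (25 ng/mL), followed by a rest of 24 h. The M1 group then received lipopolysaccharide at 100 ng/mL and interferon gamma at 20 ng/mL, and the M2 group received interleukin 4 and interleukin 13 at 20 ng/mL each. Both groups received MCHP, which forms when the plasticizer dicyclohexyl phthalate loses an ester group, at 100 µM during the 24 h of polarization. The 6 other libraries, M1 and M2 cells in the solvent DMSO, were used only to set the gap between the states under exposure beside the gap without it. The study concerned how the phthalate acts on macrophage polarization and lipid metabolism, and this comparison asked how far the polarized states lay apart while exposed. The source is a single leukaemia line, and the sources used here do not say whether the derivative is 1 clone. The labels number the replicates without saying whether they were separate cultures, so the p-values measure the spread between these libraries, part of which may be technical.

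Polarization is the change of a macrophage's gene programme by signals from its surroundings. Interferon gamma acts through its receptor on factors of the STAT and IRF families, which drive antiviral, antigen-presenting and chemokine genes, while lipopolysaccharide acts through TLR4 on NF-kB and on interferon-inducing pathways. Interleukins 4 and 13 act through IL4R and STAT6, which drives chemokines such as CCL22, lectin receptors, lipid-handling genes and the nuclear receptor PPARG. PPAR receptors bind fatty acids and related small molecules and switch on genes of lipid uptake, storage and oxidation. The series holds no group without polarizing signals, so a gap between M1 and M2 gives the distance of the states and not which of them moved. RNA was measured in bulk, and fewer cells of a kind cannot be told apart from less RNA per cell.

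Each of the 6 exposed libraries held 14352202 to 16871233 gene counts, and 14435 of the 58907 genes in the table passed the filter on low counts. Levels are given below as CPM, a gene's share of its library's counts with the library size adjusted by TMM factors, in the order of replicates 1, 2 and 3. Differences are M1 minus M2 on the log2 scale, tested with edgeR's quasi-likelihood test and called at a Benjamini-Hochberg adjusted p under 0.05. The standard error given with a difference was worked back from that test, as its size over the square root of the F value. It thus adds nothing to the p-value. Replicate 3 of M2 under MCHP stood somewhat apart. Its counts differed from those of replicates 1 and 2 by chi-square values of 4.32 and 6.31 per degree of freedom, against 2.19 to 2.46 for the 4 other pairs within an exposed group. No pair of replicates agreed within sampling noise, and all were kept as separate samples. In solvent, replicate 1 of M2 stood apart, with a log2 deviation from the rest of its group of SD 0.445 over genes, against 0.315 to 0.352 for the 11 other libraries. That library is not in the fit of the 6 exposed libraries, but it is in the fit of all 12 from which the 2 gaps and their difference come, and it bears on the set of genes used for the distances between libraries.

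M1 and M2 cells under MCHP lay further apart than any 2 replicates. Over 15252 genes, the root mean square log2 difference between an M1 and an M2 library under MCHP was 0.904 to 0.938, with a median of 0.917 over the 9 pairs. Within a group it was 0.381 to 0.390 in M1 and 0.358 to 0.402 in M2. In solvent the 9 pairs between states ran from 0.889 to 0.934, with a median of 0.905, and the 6 pairs without replicate 1 of M2 in DMSO ran from 0.889 to 0.907. The ranges with and without exposure thus overlapped from 0.904 to 0.934 with that library and from 0.904 to 0.907 without it. The first principal component of the 6 exposed libraries took 82.6% of the variance and separated the states, and the second took 4.85% and set replicate 3 of M2 against replicates 1 and 2.

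**Figure D1:**
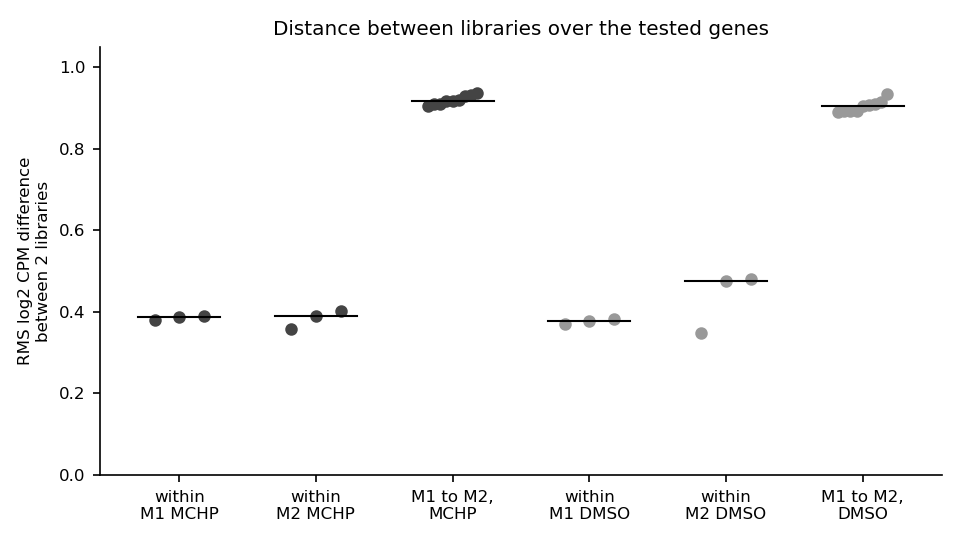
Root mean square log2 CPM difference (vertical axis) for each pair of libraries, within each group and between M1 and M2, under MCHP (dark points) and in DMSO (light points); the line is the median of the pairs. The 9 pairs between states under MCHP sit between 0.904 and 0.938, and the pairs within the exposed groups between 0.358 and 0.402.

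Of the 14435 genes, 7605 were called (52.7%), 3699 of them higher in M1 (25.6%) and 3906 higher in M2 (27.1%). The calls were near even in number but not in size. Differences of at least 1 on the log2 scale were called for 1019 genes higher in M1 (7.06%) and 855 higher in M2 (5.92%). At a size of at least 2 the counts were 360 (2.49%) and 208 (1.44%), and at a size of at least 3 they were 175 and 88. The median difference over all genes was -0.0027 and the median size 0.31. The 3 values of one group lay wholly above those of the other for 8494 genes (58.8%). With no scaling beyond library size 7793 genes were called, 38.1% of them higher in M1, and the median of all genes stood at -0.088, so the near evenness of the directions depends on the scaling. Without replicate 3 of M2, 7674 genes were called, 7111 of them among the 7605. The counts of called members in the gene lists below are to be read beside the shares over all genes, 25.6% and 27.1%. A gene could pass the filter on low counts through 1 group alone. The direction of a gene almost without counts in the other group was thus set once it was tested. Many of the genes named below were selected for a call, so their calls add nothing to the counts over all genes. Among the genes named by the rule given with the processing, CCL13 is the called one whose groups overlapped.

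**Figure D2:**
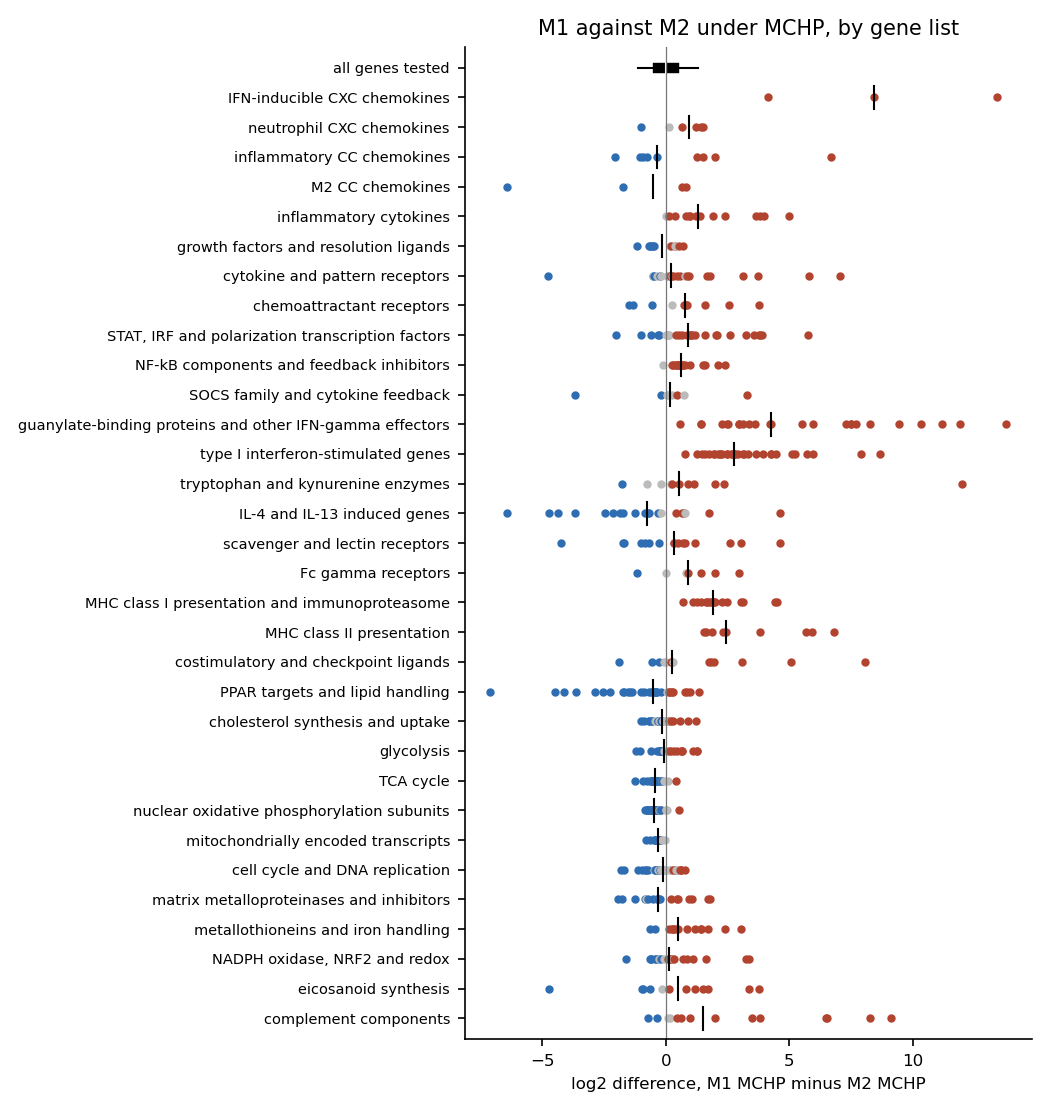
Log2 difference, M1 minus M2 under MCHP (horizontal axis), of each tested member of the gene lists with at least 3 tested members, leaving out the marker lists of cell types; red members were called higher in M1, blue higher in M2, grey not called, the black tick is the median of the list, and the bar at the top gives the middle 50% (thick) and 90% (thin) of all genes tested. Members of the interferon-gamma, type I interferon and antigen presentation lists lie to the right of 0, and most members of the lipid, TCA cycle and oxidative phosphorylation lists lie to its left.

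Among secreted ligands, the chemokines that draw T cells through CXCR3 separated the states most widely. CXCL9 (ENSG00000138755, chromosome 4, 76001275 to 76007488, hg38) stood at 88.0, 87.1 and 85.3 CPM in the M1 libraries and had no count in any M2 library. Against a floor of 3 counts over the M2 group, which like the intervals of ratios given below covers counting error only, it was at least 1379-fold higher in M1. CXCL10 (ENSG00000169245, chromosome 4, 76021117 to 76023497) stood at 286, 262 and 274 CPM in M1 and 1.03, 0.862 and 0.478 CPM in M2, a difference of 8.41 ± 0.10 (adjusted p = 1.9e-21). The third member, CXCL11, had 190 counts in M1 and 11 in M2, a ratio of 18.1 (95% interval 9.90 to 36.9). All 3 tested members of this group were higher in M1, with a median of 8.41. For CXCL9, GBP4 and CD80, which had no count in M2, the bound lies above the median of their list as the fitted value does, so the medians given here are the same with these genes at their bound. Of the 6 tested CXC chemokines that draw neutrophils, 4 were higher in M1 and 1 in M2. CXCL8, the main one in humans, stood at 8100.0, 7568 and 7633 CPM in M1 and 2889.9, 3062 and 2736 CPM in M2 (difference 1.42 ± 0.044, adjusted p = 8.4e-16). CXCL1, CXCL2 and CXCL3 differed by 1.51, 1.20 and 0.67. PPBP, a platelet-type chemokine, went the other way at -0.99 (adjusted p = 0.0012), from 3.08, 2.45 and 3.72 CPM in M1 against 7.88, 6.38 and 4.09 CPM in M2.

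The CC chemokines split by member. CCL8, which attracts monocytes, stood at 192, 183 and 171 CPM in M1 and 2.05, 1.72 and 1.50 CPM in M2, a difference of 6.69 ± 0.095 (adjusted p = 9.5e-21). CCL2 and CCL7, likewise monocyte attractants, were higher in M1 by 2.01 and 1.52. CCL4 and CCL5 went the opposite way. CCL4 stood at 70.8, 78.9 and 87.0 CPM in M1 and 335, 372 and 285 CPM in M2, a difference of -2.07 ± 0.082 (adjusted p = 4.6e-14). CCL5 stood at 1892, 1919 and 1885 CPM in M1 and 3263, 3325 and 2956 CPM in M2 (-0.74 ± 0.043, adjusted p = 1.9e-11). Reads of CCL4 can be shared with its near-identical copy CCL4L2, which makes its level uncertain. CCL3, which also has near-identical copies, differed by -1.05. Of the 9 tested inflammatory CC chemokines, 4 were higher in M1 and 5 in M2.

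Chemokines usually counted with M2 cells did not move as a group: of 9 listed, 4 were tested, 2 of them higher in M2 and 2 higher in M1. CCL22, the ligand of CCR4 (ENSG00000102962, chromosome 16, 57358772 to 57366190), stood at 12.4, 15.1 and 14.7 CPM in M1 and 1143, 1229 and 1244 CPM in M2. Its difference of -6.43 ± 0.067 (adjusted p = 1e-22) is 85.9-fold. CCL24, an eosinophil attractant, reached only 1.54, 2.18 and 2.05 CPM in M2 and 0.554, 0.648 and 0.523 CPM in M1 (-1.74 ± 0.34, adjusted p = 0.00025). CCL1, a ligand of CCR8, was higher in M1, at 186, 195 and 215 CPM against 112, 124 and 102 CPM in M2 (0.82 ± 0.065, adjusted p = 2.1e-09). CCL13 was called higher in M1 by 0.67 (adjusted p = 0.045), but its groups overlapped, at 2.40, 3.39 and 3.33 CPM in M1 and 2.50, 1.21 and 2.05 CPM in M2, and the call was lost in 7 of the other settings tried. CCL17, CCL18 and CCL26, further chemokines of the interleukin 4 response, had 1, 1 and 0 counts over the M1 libraries and 4, 0 and 1 over the M2 libraries, too few to test.

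Inflammatory cytokines were higher in M1 for 13 of 14 tested members, with a median of 1.32. TNF stood at 193, 179 and 199.9 CPM in M1 and 54.0, 57.2 and 41.4 CPM in M2, a difference of 1.90 ± 0.081 (adjusted p = 1.3e-13). IL1B stood at 10382, 10072 and 10316 CPM in M1 and at 5303, 5659 and 4745 CPM in M2 (0.97 ± 0.049, adjusted p = 2e-12). Its gap of 1.96-fold was narrower than that of TNF, at 3.74-fold. Larger differences belonged to TNFSF13B, the B cell survival factor BAFF, at 4.98, IL32 at 3.98, TNFSF10, the death ligand TRAIL, at 3.83, and EBI3, a subunit of interleukins 27 and 35, at 2.39. IL6 and IL12B, textbook cytokines of M1 cells, had 3 and 2 counts over the 3 M1 libraries and none in M2. IL10, the main anti-inflammatory cytokine, had 3 counts in M1 and 25 in M2. Of 12 tested growth factors and resolution ligands, 4 were higher in M1 and 6 in M2, with a median of -0.16. VEGFA, an angiogenic factor, stood at 289, 308 and 319 CPM in M1 and 497, 485 and 453 CPM in M2 (-0.65 ± 0.048). IL1RN, the natural antagonist of the interleukin 1 receptor, was higher in M2 by 1.50-fold (-0.59 ± 0.039), and TGFB1 by 1.45-fold (-0.53 ± 0.039). HBEGF, a ligand of the EGF receptor, was higher in M1 (0.69 ± 0.040).

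**Figure D3:**
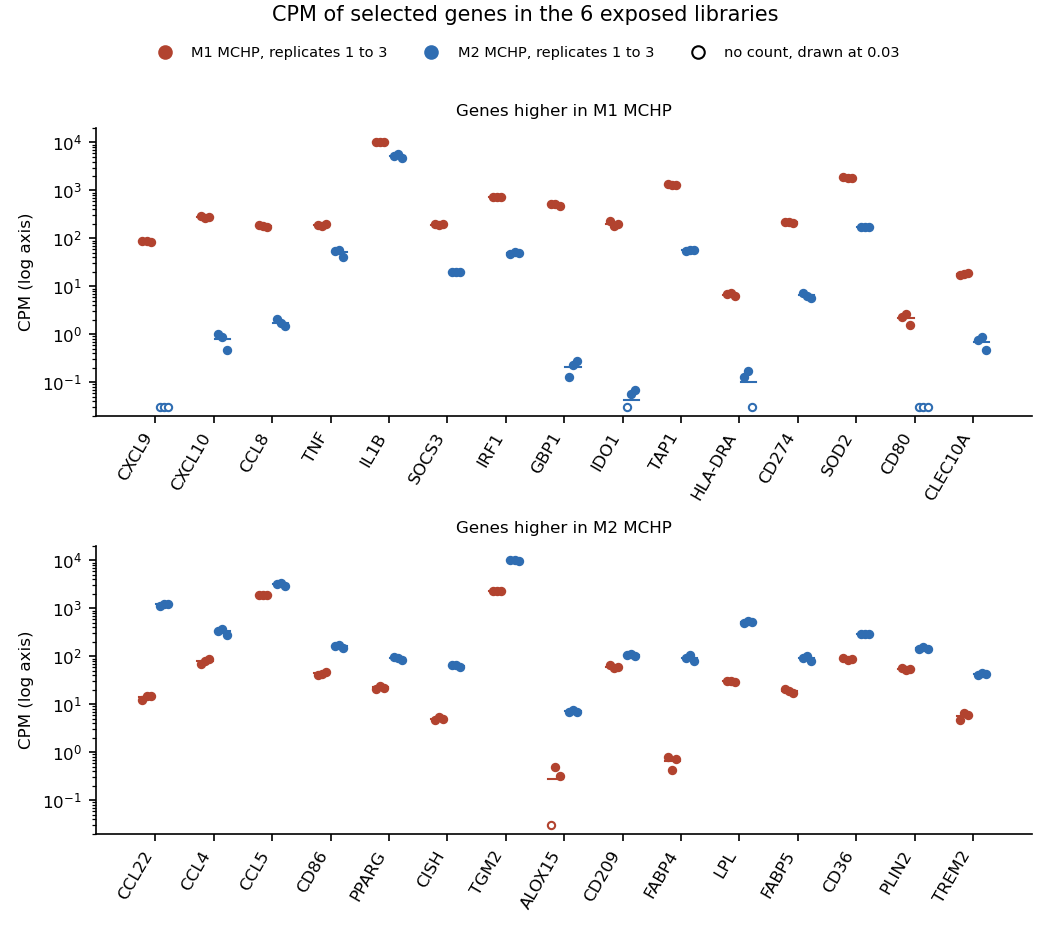
CPM (log axis) of 30 genes in each of the 3 M1 MCHP libraries (red) and the 3 M2 MCHP libraries (blue), with the group mean as a line; open points are libraries with no count, drawn at 0.03. CXCL9 and CD80 had no count in M2, while CCL22 stood at 12.4, 15.1 and 14.7 CPM in M1 and 1143, 1229 and 1244 CPM in M2.

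The receptors for the polarizing cytokines differed by less than 1 on the log2 scale. IL4R stood at 183, 187 and 180.4 CPM in M1 and 155, 153 and 166 CPM in M2 (0.22 ± 0.047, adjusted p = 0.00058), and IL13RA1 was higher in M1 by 0.60. IFNGR1 was not called, at 74.2, 77.6 and 79.9 CPM in M1 and 77.9, 78.9 and 68.4 CPM in M2 (0.039 ± 0.060, adjusted p = 0.61). TLR4, the lipopolysaccharide receptor, was lower in M1 under MCHP, at 45.6, 40.9 and 40.6 CPM against 60.8, 60.3 and 63.5 CPM in M2 (-0.54 ± 0.063, adjusted p = 5.6e-07). In DMSO, where the M1 cells had also received lipopolysaccharide, TLR4 was instead higher in M1, with a gap of 0.46. Its co-receptor CD14 was higher in M1, at 62.9, 64.6 and 70.2 CPM against 6.54, 7.99 and 7.78 CPM in M2 (3.14 ± 0.087, adjusted p = 1.7e-16). TLR2, which senses bacterial lipoproteins, was higher in M1 by 1.77, and IL15RA, which presents interleukin 15, by 5.80. TLR8 and TLR3, sensors of RNA named here after their values were seen, had 682 and 106 counts over the M1 libraries and 5 and 8 over the M2 libraries. CD180, a relative of TLR4, was the receptor furthest on the M2 side, with 0.370, 0.648 and 0.261 CPM in M1 and 12.3, 11.2 and 11.7 CPM in M2, a ratio of 27.9 (95% interval 17.7 to 46.8). Of 27 tested receptors of cytokines and microbial patterns, 14 were higher in M1 and 4 in M2, with a median of 0.23.

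Of 10 tested chemoattractant receptors, 6 were higher in M1 and 3 in M2, with a median of 0.78. PTAFR, the receptor of platelet-activating factor, stood at 370.1, 374 and 342 CPM in M1 and 28.6, 23.2 and 27.6 CPM in M2 (3.78 ± 0.067, adjusted p = 1.9e-19). C3AR1 and C5AR1, the receptors of complement fragments, were higher in M1 by 2.57 and 0.83, and CCR1 by 1.60. CXCR4, the receptor of CXCL12, was higher in M2, at 33.5, 32.9 and 26.0 CPM against 10.6, 11.1 and 11.4 CPM in M1 (-1.49 ± 0.10, adjusted p = 3.7e-10). Among Fc receptors for immunoglobulin G, 4 of 7 tested were higher in M1 and 1 in M2. FCGR1A, the high-affinity receptor, stood at 233, 223 and 227 CPM in M1 and 29.9, 30.5 and 26.8 CPM in M2 (2.97 ± 0.057, adjusted p = 5.2e-19). FCGR2B, the inhibitory receptor, was called higher in M2 at levels of 0.985, 1.01 and 0.457 CPM in M1 and 1.54, 2.36 and 1.50 CPM in M2 (-1.15 ± 0.36, adjusted p = 0.011). That call was lost without M1 replicate 3 (adjusted p = 0.068) and without M2 replicate 2 (adjusted p = 0.080). Reads of the FCGR1 and FCGR2 genes can be shared between near-identical copies.

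Most transcription factors of the interferon pathway were higher in M1. IRF1, an early target of interferon gamma signalling, stood at 721, 721 and 739 CPM in M1 and 46.7, 51.1 and 48.6 CPM in M2 (3.90 ± 0.050, adjusted p = 1.9e-21). BATF2, another interferon-induced factor, was higher by 5.77, and CIITA, the master regulator of MHC class II genes, by 3.82. STAT6, the factor of the M2 signal, was itself higher in M1, at 184, 204 and 206 CPM against 124, 121 and 128 CPM in M2 (0.67 ± 0.051, adjusted p = 1.2e-09). IRF8 was not called, at 66.3, 69.3 and 56.4 CPM in M1 and 64.6, 55.2 and 54.7 CPM in M2 (0.14 ± 0.077, adjusted p = 0.15), and its call was gained without M1 replicate 3 (adjusted p = 0.019) or M2 replicate 1 (adjusted p = 0.040). IRF4, a factor of alternative polarization, had 4 counts over the M1 libraries and none in M2. PPARG was the factor furthest on the M2 side, at 21.3, 23.9 and 22.0 CPM in M1 and 95.3, 92.0 and 84.6 CPM in M2, 4.05-fold higher in M2 (-2.02 ± 0.068, adjusted p = 3.8e-15). Of 29 tested factors, 19 were higher in M1 and 5 in M2, with a median of 0.91.

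NF-kB components and their feedback inhibitors were higher in M1 for 18 of 19 tested members, with a median of 0.63. RELA, the transactivating subunit, differed by 0.98 ± 0.052. Wide differences were seen in inhibitors and modulators: NFKBIZ (2.38 ± 0.058), TNFAIP3, the deubiquitinating enzyme A20 (2.10 ± 0.050), and BCL3 (1.52 ± 0.054). NFKBIA, the classical inhibitor of the pathway, differed by only 0.29 ± 0.055 (adjusted p = 0.00018), from 145, 149.6 and 150.4 CPM in M1 and 121, 131 and 112 CPM in M2. Feedback inhibitors of cytokine receptors divided by member. SOCS3, induced by STAT3-type signals, stood at 199, 187 and 197 CPM in M1 and 20.1, 20.3 and 19.5 CPM in M2 (3.28 ± 0.057, adjusted p = 1.5e-19). CISH, a STAT5 target also induced by interleukin 4, lay on the opposite side, at 4.80, 5.33 and 4.83 CPM in M1 and 64.7, 67.3 and 59.8 CPM in M2 (-3.68 ± 0.090, adjusted p = 2.4e-17). SOCS1, the inhibitor of interferon gamma signalling, was not called, at 13.1, 13.5 and 13.0 CPM in M1 and 10.9, 11.3 and 11.5 CPM in M2 (0.24 ± 0.11, adjusted p = 0.067). Of the 8 tested members of this family, 2 were higher in M1 and 2 in M2.

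Effectors of interferon gamma lay on the M1 side among the members tested. Of 30 listed members 25 were tested, and all 25 were higher in M1, against 25.6% of all genes tested. Their median was 4.25 on the log2 scale, and 24 of them differed by at least 1. Members with almost no count in M2, such as GBP1, GBP4 and GBP5, could pass the filter on low counts only through M1, which set their direction. GBP4, a guanylate-binding protein that attacks intracellular microbes (ENSG00000162654, chromosome 1, 89181148 to 89198932), stood at 118, 112 and 109 CPM in M1 with no count in M2, at least 1792-fold higher. GBP5, which promotes inflammasome assembly, stood at 626, 599 and 569 CPM in M1 and 0.0641, 0.115 and 0.273 CPM in M2, a ratio of 4075 (95% interval 1978 to 10136). GBP1 (ENSG00000117228, chromosome 1, 89052319 to 89065360) had 23075 counts in M1 and 10 in M2, a ratio of 2421 (95% interval 1316 to 5049), and shares reads with close copies. SERPING1, the inhibitor of complement C1, differed by 8.27 ± 0.11. IDO1, the enzyme that opens the tryptophan to kynurenine route (ENSG00000131203, chromosome 8, 39902275 to 39928444), stood at 225, 178 and 203 CPM in M1 and had 2 counts over the 3 M2 libraries, a ratio of 4846 (95% interval 1341 to 40018). Further along that route, KYNU was higher in M1 by 1.99, and WARS, the interferon-induced tryptophanyl-tRNA synthetase, by 2.37. QPRT, which leads to NAD, was higher in M2, at 4.19, 4.83 and 5.29 CPM in M1 and 14.7, 18.9 and 15.5 CPM in M2 (-1.78 ± 0.14, adjusted p = 2e-09). NOS2, a mouse marker of M1 cells that human macrophages express poorly, had 12 counts in M1 and 10 in M2.

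Genes known from the type I interferon response were higher in M1 for all 34 tested members, with a median of 2.77, and 33 differed by at least 1. TRIM22, an antiviral ubiquitin ligase, stood at 465, 448 and 457 CPM in M1 and 6.34, 9.03 and 6.62 CPM in M2 (5.95 ± 0.079, adjusted p = 3.6e-21). RSAD2, the antiviral enzyme viperin, stood at 118, 115 and 115 CPM in M1 and 1.99, 2.82 and 1.71 CPM in M2 (5.71 ± 0.10). ISG15, a ubiquitin-like modifier, stood at 211, 205 and 195 CPM in M1 and 29.4, 33.3 and 26.2 CPM in M2 (2.77 ± 0.068), which shows a detectable level in both states. IFI44L and IFI44 had 1693 and 762 counts in M1 against 4 and 3 in M2, and could pass the filter on low counts only through M1, which set their direction. IFNB1, the gene of interferon beta, had 6 counts in M1 and 1 in M2.

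The bases before the start of the genes were searched for the letters that interferon-activated and other factors are known to bind. RefSeq start sites (GRCh38.p14) were found for 10416 of the 14435 genes tested, and 250 bases before each were searched on both strands. The interferon-stimulated response element, ISRE, bound by factors of the IRF family, was searched as GAAA and GAAA with any 2 bases between them, and the GAS element, bound by STAT dimers, as TTC and GAA with any 3 bases between them. ISRE letters were in 35 of 214 promoters of genes called higher in M1 by at least 2 (16.4%), in 4 of 137 of those higher in M2 by at least 2 (2.92%) and in 2.54% of all 10416. GAS letters were in 22 of the 214 (10.3%), in 3 of the 137 (2.19%) and in 5.50% of all. The spacing preferred by STAT6, TTC and GAA with 4 bases between them, was in 3.74% of the M1 set, 5.84% of the M2 set and 4.05% of all, and a kappaB form, GGG and CC with 5 bases between them, was in 65.9%, 66.4% and 69.6%. In the type I interferon list, 16 of 28 matched promoters held the ISRE letters, as did 4 of 13 of the interferon gamma effectors and 6 of 14 of the MHC class I list. In the interleukin 4 and 13 list, 0 of 15 held the STAT6 spacing and 3 of 15 held GAS letters. A DR1 form, AGGTCA and AGGTCA with any base between them, was in 0 of 25 promoters of the PPAR and lipid list and in 2 of all 10416. Overlaps between motifs were not removed, and a match describes the letters, not binding. The 4 promoters below were chosen because they hold a match, so that the letters can be seen in place: 3 with an ISRE match from genes higher in M1, and CISH, higher in M2, with 4 GAS matches. Genes with wider gaps can lack both: GBP4 and CCL22, the widest on the M1 and M2 sides among the named genes of the lists searched, held neither ISRE nor GAS letters in this window. Capitals mark the ISRE match in the first 3 and the GAS matches in CISH, all are on the minus strand and read 5′ to 3′ up to the base before the start, and the GBP1 start in RefSeq lies 152 bases from the start in the deposited table.
CXCL9, chr4:76007510-76007759, match beginning 171 bases before the start: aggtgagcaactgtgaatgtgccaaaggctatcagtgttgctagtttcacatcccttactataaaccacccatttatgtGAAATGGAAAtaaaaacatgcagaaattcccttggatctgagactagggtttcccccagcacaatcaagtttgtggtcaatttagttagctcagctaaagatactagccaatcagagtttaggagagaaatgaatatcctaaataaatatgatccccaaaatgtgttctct
CXCL10, chr4:76023498-76023747, match beginning 221 bases before the start: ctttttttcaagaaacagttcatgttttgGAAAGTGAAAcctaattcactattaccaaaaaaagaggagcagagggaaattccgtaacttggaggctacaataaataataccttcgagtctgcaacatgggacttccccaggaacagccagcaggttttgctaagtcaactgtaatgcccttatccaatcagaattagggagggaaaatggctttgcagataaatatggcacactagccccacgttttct
GBP1, chr1:89065209-89065458, match beginning 127 bases before the start, on the opposite strand: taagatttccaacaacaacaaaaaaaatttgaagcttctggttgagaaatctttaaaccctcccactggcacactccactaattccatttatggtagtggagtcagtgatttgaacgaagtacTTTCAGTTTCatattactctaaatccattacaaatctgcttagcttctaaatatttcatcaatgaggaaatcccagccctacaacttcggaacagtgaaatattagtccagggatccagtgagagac
CISH, chr3:50611775-50612024, matches beginning 241, 230, 129 and 112 bases before the start: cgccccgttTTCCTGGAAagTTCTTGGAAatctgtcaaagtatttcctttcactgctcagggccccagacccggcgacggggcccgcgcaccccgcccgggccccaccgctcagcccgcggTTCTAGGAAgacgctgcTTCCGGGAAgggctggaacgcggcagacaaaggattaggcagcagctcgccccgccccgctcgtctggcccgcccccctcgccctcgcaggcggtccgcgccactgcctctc

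All tested members of antigen presentation were higher in M1, 17 of 17 for MHC class I and the immunoproteasome (median 1.91) and 9 of 9 for MHC class II (median 2.45). Members almost without counts in M2, such as HLA-DRA with 306 counts in M1 and 5 in M2, could pass the filter only through M1. That set their direction. TAP1, which carries peptides into the endoplasmic reticulum, stood at 1334, 1317 and 1276 CPM in M1 and 55.6, 58.3 and 57.2 CPM in M2 (4.52 ± 0.048, adjusted p = 1.1e-22). PSMB9, a catalytic subunit of the immunoproteasome, stood at 217, 209.5 and 214 CPM in M1 and 10.1, 11.5 and 7.78 CPM in M2 (4.44 ± 0.081). NLRC5, the regulator of class I genes, differed by 3.06 ± 0.053. For class II, HLA-DRA was low in both states, at 6.96, 7.13 and 6.14 CPM in M1 and 0.128, 0.172 and 0 CPM in M2, a ratio of 64.2 (95% interval 27.2 to 199). CD74, the invariant chain, had a narrower gap, at 439.7, 437 and 433 CPM in M1 and 134, 151 and 144 CPM in M2 (1.61 ± 0.048). Another 6 class II genes, such as HLA-DQA1 with 33 and 2 counts, were too low to test, and reads of HLA genes can be shared between copies.

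Costimulatory and checkpoint ligands, the signals that accompany antigen, went both ways, 8 of 14 tested higher in M1 and 3 higher in M2. CD274, the checkpoint ligand PD-L1, stood at 223, 216 and 210.3 CPM in M1 and 7.31, 6.38 and 5.80 CPM in M2 (5.06 ± 0.072, adjusted p = 9.5e-21). CD80 and CD86, which share the receptors CD28 and CTLA4, pointed in opposite directions. CD80 stood at 2.28, 2.59 and 1.57 CPM in M1 with no count in M2, at least 33.9-fold higher. CD86 stood at 41.1, 43.1 and 47.8 CPM in M1 and 166, 173 and 152 CPM in M2, 3.72-fold higher in M2 (-1.89 ± 0.064, adjusted p = 3.6e-15). CD40 was higher in M1 by 1.94. PDCD1LG2, the second ligand of PD-1 and a textbook M2 gene, was also higher in M1, at 9.85, 9.08 and 8.10 CPM against 2.69, 3.05 and 2.32 CPM in M2 (1.74 ± 0.17, adjusted p = 4.8e-08).

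Genes induced by interleukins 4 and 13 were only partly detected: 20 of 33 listed genes were tested, 13 of them higher in M2 and 5 higher in M1, with a median of -0.77. TGM2, a transglutaminase and a conserved human M2 marker (ENSG00000198959, chromosome 20, 38127387 to 38166578), stood at 2262, 2282 and 2276 CPM in M1 and 10041, 10007 and 9885 CPM in M2, 4.39-fold higher in M2 (-2.13 ± 0.035, adjusted p = 8.2e-20). ALOX15, the lipoxygenase induced by interleukin 4, reached 6.99, 7.65 and 6.96 CPM in M2 with 12 counts over the M1 libraries, a ratio of 27.3 (95% interval 15.4 to 53.4). SLC7A8, an amino acid transporter, stood at 6.65, 7.49 and 7.84 CPM in M1 and 39.8, 41.8 and 40.3 CPM in M2 (-2.47 ± 0.090). FCER2, the low-affinity IgE receptor, differed by -1.24 ± 0.10, and CD209, the lectin DC-SIGN, by -0.82 ± 0.060, from 64.7, 56.9 and 58.5 CPM in M1 and 109, 110.3 and 99.7 CPM in M2. Several textbook markers were close to absent in both states. MRC1, the mannose receptor, had 0 counts in M1 and 2 in M2, and MAOA and F13A1 had none in either. MSR1 had 6 and 15 counts. CLEC10A, a galactose-type lectin usually counted with M2 cells, lay on the M1 side, at 17.1, 17.9 and 18.8 CPM in M1 and 0.769, 0.862 and 0.478 CPM in M2, 24.9-fold higher in M1 (4.64 ± 0.18, adjusted p = 4.6e-14). CD163, the haemoglobin scavenger receptor and another M2 marker, was likewise higher in M1, at 22.1, 22.8 and 23.1 CPM against 13.8, 13.5 and 14.5 CPM in M2 (0.71 ± 0.088, adjusted p = 1.4e-06). CCL22, TGM2, CISH and ALOX15 thus separated the states on the M2 side, while transcripts of the mannose receptor, CCL17 and CCL18 were too few to separate them. Among 16 tested scavenger and lectin receptors, 9 were higher in M1 and 7 in M2. SIGLEC1, a sialic acid-binding lectin induced by interferon, differed by 3.03 ± 0.061, and SIGLEC10, an inhibitory one, by -4.25 ± 0.078.

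Genes of lipid uptake, binding and breakdown lay mostly on the M2 side under MCHP. Of 33 tested PPAR target and lipid-handling genes, 23 were higher in M2 and 8 in M1, with a median of -0.51, and 12 of the 23 differed by at least 1. FABP4, a carrier of fatty acids inside macrophages and adipocytes (ENSG00000170323, chromosome 8, 81478419 to 81483263), stood at 0.801, 0.432 and 0.719 CPM in M1 and 90.6, 105 and 78.0 CPM in M2. It had 30 counts over the M1 libraries and 4381 over the M2 libraries, a ratio of 139 (95% interval 97.4 to 207), the widest gap on the M2 side among the named genes. LPL, which releases fatty acids from lipoproteins (ENSG00000175445, chromosome 8, 19901717 to 19967259), stood at 30.2, 30.3 and 29.9 CPM in M1 and 502, 538 and 529 CPM in M2 (-4.12 ± 0.052, adjusted p = 1.9e-21). FABP3 stood at 4.93, 4.68 and 4.38 CPM in M1 and 55.3, 60.5 and 55.8 CPM in M2 (-3.61 ± 0.092). FABP5, whose reads can be shared with processed copies, stood at 20.9, 19.2 and 17.3 CPM in M1 and 92.0, 99.7 and 79.0 CPM in M2 (-2.24 ± 0.087). The groups did not overlap in these 4 genes, as in 58.8% of all genes tested. Groups that do not overlap were a condition for naming FABP4 by the size of its gap. FABP3, FABP4 and LPL were also selected as called members of their list, so the separation adds no support.

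CD36, a receptor for fatty acids and oxidized lipoproteins, stood at 91.0, 84.6 and 85.9 CPM in M1 and 290.5, 289 and 293 CPM in M2 (-1.74 ± 0.047, adjusted p = 1e-16). PLIN2, which coats lipid droplets, stood at 57.7, 51.7 and 54.2 CPM in M1 and 143, 155 and 142 CPM in M2 (-1.43 ± 0.056, adjusted p = 4.5e-14). TREM2, a lipid-sensing receptor of lipid-associated macrophages, stood at 4.80, 6.63 and 5.95 CPM in M1 and 40.8, 44.4 and 41.9 CPM in M2 (-2.88 ± 0.10, adjusted p = 9.8e-15). HILPDA, an inhibitor of droplet lipolysis, was higher in M2 by 5.79-fold (-2.53 ± 0.21), and ANGPTL4, an inhibitor of LPL, by 1.85-fold (-0.88 ± 0.15). The 8 members on the M1 side were the cholesterol exporters ABCA1 and ABCG1, the enzymes ACSL1, ACSL3 and ACSL4 that activate fatty acids, the triglyceride enzymes DGAT2 and PNPLA2 and the droplet protein PLIN3. ABCA1, which exports cholesterol, stood at 690.3, 715 and 694 CPM in M1 and 398, 398 and 414 CPM in M2 (0.80 ± 0.040, adjusted p = 2.2e-12). ACSL1, which activates fatty acids and is induced by lipopolysaccharide, stood at 306, 304 and 305 CPM in M1 and 153, 156 and 156 CPM in M2 (0.98 ± 0.042). Of the receptors behind these genes, PPARG was higher in M2 (given above), PPARD higher in M1 (0.51 ± 0.042), PPARA not called (0.11 ± 0.064, adjusted p = 0.16), RXRA higher in M2 (-0.30 ± 0.057) and NR1H3, the receptor LXR alpha, higher in M2 (-0.39 ± 0.060). Cholesterol synthesis and uptake went both ways, with 6 of 25 tested members higher in M1 and 12 in M2. NPC1, which moves cholesterol out of lysosomes, was higher in M2 (-0.88 ± 0.041).

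Energy metabolism differed by pathway. Glycolysis showed no common direction, with 10 of 23 tested members higher in M1, 11 higher in M2 and a median of -0.078. Members went both ways at the first step: HK1, a constitutive hexokinase, was higher in M2 (-1.04). HK2, the inducible hexokinase, stood at 718, 726 and 701 CPM in M1 and 299, 283 and 318 CPM in M2 (1.25 ± 0.046), and the glucose transporter SLC2A3 was higher in M1 by 1.25 and the lactate exporter SLC16A3 by 0.63. Later enzymes of the pathway had small differences on the M2 side, such as -0.17 for GAPDH, -0.14 for PKM and -0.23 for LDHA. The TCA cycle was higher in M2 for 20 of 24 members and higher in M1 for 1, with a median of -0.44. The widest member was MDH1, at 80.8, 80.9 and 82.1 CPM in M1 and 189, 203 and 180.0 CPM in M2 (-1.23 ± 0.052). MDH1 is the cytosolic malate dehydrogenase and not the mitochondrial enzyme of the cycle. It was the only listed member called with a difference of at least 1 in size. FH, the fumarase, differed by -0.92 ± 0.059 and IDH3A by -0.74 ± 0.060. OGDH was the exception, higher in M1 (0.40 ± 0.045). ACOD1, which diverts the cycle toward itaconate in activated macrophages and is named here after its value was seen, had 274 counts over the M1 libraries and 1 over the M2 libraries.

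Nuclear genes of oxidative phosphorylation were higher in M2 for 33 of 42 tested members and higher in M1 for 1, with a median of -0.47. The differences ran from -0.84 for UQCRB to 0.52 for NDUFA9, both subunits of the respiratory chain, and none reached 1 in size. ATP5F1B, a catalytic subunit of ATP synthase, stood at 559, 549 and 541 CPM in M1 and 789, 813 and 811 CPM in M2 (-0.55 ± 0.039). Mitochondrially encoded transcripts were higher in M2 for 11 of 13 listed members, with a median of -0.32. MT-RNR2, a mitochondrial ribosomal RNA outside this list, lay on the M1 side in the edgeR fit of 12 libraries. Its gap was 0.22 under MCHP (adjusted p = 0.024) and 0.76 in DMSO, a called difference of -0.55 ± 0.10 (adjusted p = 0.036). All transcripts of the mitochondrial genome, those outside the list included, took 2.99%, 3.24% and 3.03% of counts in the M1 libraries and 3.64%, 3.71% and 4.28% in the M2 libraries. The means were 3.09 ± 0.13% and 3.88 ± 0.35% (SD, n = 3), and an exact two-sided permutation test gave p = 0.1, the smallest that 3 libraries against 3 allow. Replicate 3 of M2, which stood apart in its counts, had the highest share. Without it the difference was -0.59 percentage points instead of -0.79, and the list of nuclear subunits had 36 members higher in M2 and 1 in M1. In solvent the shares were 2.87%, 2.86% and 3.16% in M1 and 3.23%, 3.12% and 3.10% in M2.

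**Figure D4:**
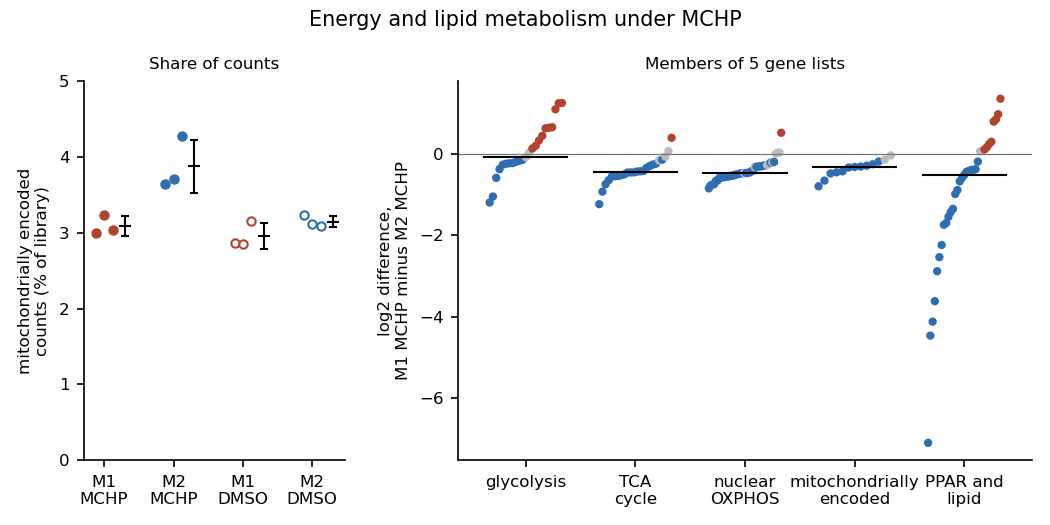
Left, percent of counts from the mitochondrial genome in each library of the 4 groups (filled points MCHP, open points DMSO), with the mean and SD of 3 libraries as black bars. Right, log2 difference, M1 minus M2 under MCHP, of each tested member of 5 lists, ordered by value, with the list median as a line; red members were called higher in M1, blue higher in M2 and grey not called. The 3 M2 MCHP libraries lie above the 3 M1 MCHP libraries, at 3.64% to 4.28% against 2.99% to 3.24%.

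Other effector systems of macrophages also divided the states. Complement genes were higher in M1 for 10 of 14 tested members (median 1.49). C1S, a protease of the classical pathway, stood at 112, 111 and 113 CPM in M1 and 1.28, 1.49 and 0.955 CPM in M2 (6.47 ± 0.10), and C3, the central component, at 4019, 4176 and 3949.8 CPM in M1 and 2062, 1936 and 2078 CPM in M2 (1.00 ± 0.040). In eicosanoid synthesis, 7 of 12 tested genes were higher in M1 and 4 in M2. PTGS2, the inducible cyclooxygenase, stood at 176, 166 and 165 CPM in M1 and 18.3, 16.0 and 14.4 CPM in M2 (3.38 ± 0.070), while PTGS1, the constitutive one, stood at 477, 482 and 473 CPM in M1 and 921, 919 and 889 CPM in M2 (-0.93 ± 0.039). PTGES, which makes prostaglandin E2, was likewise higher in M1 (3.76 ± 0.068), and the lipoxygenases divided, with ALOX5 higher in M1 (1.70 ± 0.073) and ALOX15 higher in M2.

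Metallothionein and iron genes were higher in M1 for 13 of 15 tested members (median 0.50). MT2A, a zinc and cadmium binding metallothionein, stood at 306, 333 and 348 CPM in M1 and 39.3, 46.1 and 34.3 CPM in M2 (3.04 ± 0.077), and FTH1, the heavy chain of ferritin, differed by 1.44 ± 0.041. HMOX1, which degrades heme, was higher in M2 (-0.63 ± 0.047). Among redox genes, NCF1 and CYBB, subunits of the phagocyte NADPH oxidase, were higher in M1 by 3.24 and 1.62, and SOD2, the mitochondrial superoxide dismutase, stood at 1875, 1805 and 1781 CPM in M1 and 175, 172 and 176 CPM in M2 (3.39 ± 0.043). CAT, the catalase of peroxisomes, was higher in M2, at 23.6, 25.3 and 23.3 CPM in M1 and 74.0, 72.4 and 70.8 CPM in M2 (-1.59 ± 0.063). As a list these genes had no stable direction: 11 were higher in M1 and 8 in M2, against 7 and 9 with library size alone.

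Matrix genes were divided, 7 of 19 tested higher in M1 and 10 higher in M2. TIMP3, a matrix-bound protease inhibitor, stood at 113, 115 and 123 CPM in M1 and 425, 446 and 465 CPM in M2 (-1.93 ± 0.050). ADAMDEC1, a macrophage metalloprotease, was higher in M1 (1.80 ± 0.082). Of 37 tested cell cycle genes, 6 were higher in M1 (16.2%) and 13 in M2 (35.1%), with a median of -0.12. The shares over all genes tested were 25.6% and 27.1%. AURKA, a mitotic kinase, stood at 23.1, 23.3 and 27.8 CPM in M1 and 53.6, 58.9 and 49.5 CPM in M2 (-1.13 ± 0.083), and the inhibitor CDKN1A was also higher in M2 (-0.80 ± 0.039).

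Among the 10 protein-coding genes with the widest gap on the M2 side, several belong to no list of cytokine signals or their targets. PHOSPHO1, a phosphatase of phosphocholine, stood at 0.616, 1.37 and 0.653 CPM in M1 and 26.6, 27.5 and 28.0 CPM in M2 (-4.98 ± 0.18, adjusted p = 7.4e-15). CYSLTR1, a receptor of cysteinyl leukotrienes, stood at 6.84, 5.40 and 8.17 CPM in M1 and 145, 152 and 145 CPM in M2 (-4.43 ± 0.086, adjusted p = 6.4e-19). GPD1, which makes the glycerol backbone of triglycerides, differed by -4.46 ± 0.17. VIPR1, a receptor of vasoactive intestinal peptide, differed by -4.55 ± 0.19, SLCO2B1, an organic anion transporter, by -4.49 ± 0.17 and SPINT2, an inhibitor of serine proteases, by -4.15 ± 0.10. Groups that do not overlap were a condition for naming these 6 genes.

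Markers of cell identity were checked in both groups. Of 15 tested macrophage and monocyte markers, 11 were higher in M1 and 2 in M2, and the summed list took 0.515% to 0.528% of counts in M1 and 0.414% to 0.420% in M2. LYZ, lysozyme, stood at 310.1, 305 and 287 CPM in M1 and 70.4, 66.6 and 65.9 CPM in M2, and ITGAM, the integrin CD11b, at 353, 357 and 369.9 CPM in M1 and 739, 718 and 752 CPM in M2. CD68, a defining macrophage marker, had only 17 counts in M1 and 11 in M2, and so is close to absent from the deposited counts. CSF1R was not called (0.077). Markers of dendritic cells took 0.00853% to 0.00884% of counts in M1 and 0.00818% to 0.00876% in M2, with FCER1A and CLEC4C at 0, and 3 of 7 tested were higher in M2 and 2 in M1. CD1C had 5 counts in M1 and 115 in M2, a ratio of 21.9 (95% interval 9.13 to 68.8). Of 12 T and NK cell markers 5 were tested, with NCAM1 higher in M1 (0.78 ± 0.051) and CD4 and TRAC higher in M2 (-1.58 ± 0.39 and -0.82 ± 0.12). CD3D, CD3G, CD2, CD8A and CD8B were at 0 in all 6 libraries, and the list took 0.0119% to 0.0125% of counts in M1 and 0.00911% to 0.0096% in M2. Of 6 B cell markers 2 were tested and 1, PAX5, was higher in M1, MS4A1 and CD79B were at 0, and the list took 0.000214% to 0.000306% of counts in M1 and 0.000146% to 0.000209% in M2. Of 15 markers of fibroblasts, endothelium, epithelium and adipocytes 3 were tested, and the list took 0.0139% to 0.016% of counts in M1 and 0.0112% to 0.0127% in M2. COL1A1, a collagen of fibroblasts, was higher in M1, at 118, 134 and 135 CPM against 28.7, 25.7 and 27.9 CPM in M2 (2.23 ± 0.067), and VWF, of endothelium, was higher in M2 (-1.86 ± 0.076), while COL3A1, DCN, EPCAM and LEP had no count. The part of these transcripts in the other differences was not tested.

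The gap between the states was about as wide under MCHP as in solvent. In a fit of all 12 libraries, 6804 of 15252 genes were called between M1 and M2 under MCHP (44.6%) and 6489 in DMSO (42.5%). Both gaps were called for 5256 genes, which is 77.2% of the first set and 81.0% of the second, and 5249 of these had the same direction. The median size of the gap was 0.33 under MCHP and 0.31 in DMSO, and of the 5249 genes 55.3% had the larger gap under MCHP. Across genes, Pearson's r between the 2 gaps was 0.907 and Spearman's rho 0.809. Genes are not independent replicates, and the 2 gaps share no library. In the fit without replicate 1 of M2 in DMSO, 8014 genes were called under MCHP. The gap in DMSO was not counted in that fit, so 8014 is not comparable with 6489. The effectors of interferon gamma had a median gap of 4.26 under both, the MHC class II genes 2.46 under MCHP and 2.41 in DMSO, and the PPAR and lipid list -0.51 and -0.40.

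The difference of the gaps, MCHP minus DMSO, was called for 25 genes (0.164%), 9 of them with a higher and 16 with a lower value of M1 minus M2 under MCHP. Without replicate 1 of M2 in DMSO, which stood apart, 385 of 15629 genes were called (2.46%), 168 higher and 217 lower, and all 25 remained among them. Leaving out another single library lowered the count in most cases: it was 10, 10 and 13 without M1 MCHP replicates 1, 2 and 3, 11, 5 and 10 without M1 DMSO replicates 1, 2 and 3, 5, 19 and 10 without M2 MCHP replicates 1, 2 and 3, and 19 without M2 DMSO replicate 2. Without M2 DMSO replicate 3 it rose to 36. PLIN2 had a gap of -1.42 under MCHP and -0.41 in DMSO, a difference of -1.02 ± 0.11 (adjusted p = 0.00015). Its level was 36.4 ± 2.81 CPM in M1 and 48.3 ± 2.64 CPM in M2 in solvent (SD, n = 3), against 55.0 ± 3.30 and 148 ± 7.63 CPM under MCHP. FABP3 had a gap of -3.61 under MCHP and -2.42 in DMSO (difference -1.19 ± 0.16, adjusted p = 0.003), and FABP5 of -2.23 and -1.31 (-0.92 ± 0.15, adjusted p = 0.012). For these 3 lipid genes the states lay further apart under exposure.

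TLR4 changed sides, with a gap of -0.53 under MCHP and 0.46 in DMSO (-0.99 ± 0.10, adjusted p = 0.00015). It stood at 31.8 ± 0.584 CPM in M1 and 23.2 ± 0.524 CPM in M2 in solvent, and at 42.8 ± 3.11 and 62.0 ± 1.55 CPM under MCHP. ADGRE3, an adhesion receptor of myeloid cells, and CD83, a marker of activated antigen-presenting cells, also had called gaps of opposite sign, -0.65 and 0.21 for ADGRE3 and 0.25 and -0.32 for CD83. CD209 had a gap of -0.82 under MCHP and -1.59 in DMSO (0.77 ± 0.11, adjusted p = 0.003), so its states lay closer together under exposure. CCL8 had a gap of 6.69 under MCHP and 5.68 in DMSO (1.01 ± 0.18, adjusted p = 0.022), and CCL1 of 0.82 and 0.047 (0.78 ± 0.15, adjusted p = 0.031). No difference of gaps was called for CCL22 (-0.50 ± 0.15, adjusted p = 0.27) or LPL (-0.18 ± 0.10, adjusted p = 0.65), which does not show that their gaps were equal. The difference for CCL22 was called without replicate 1 of M2 in DMSO (-0.40, adjusted p = 0.035) and with no filter on low counts (-0.50, adjusted p = 0.0026).

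**Figure D5:**
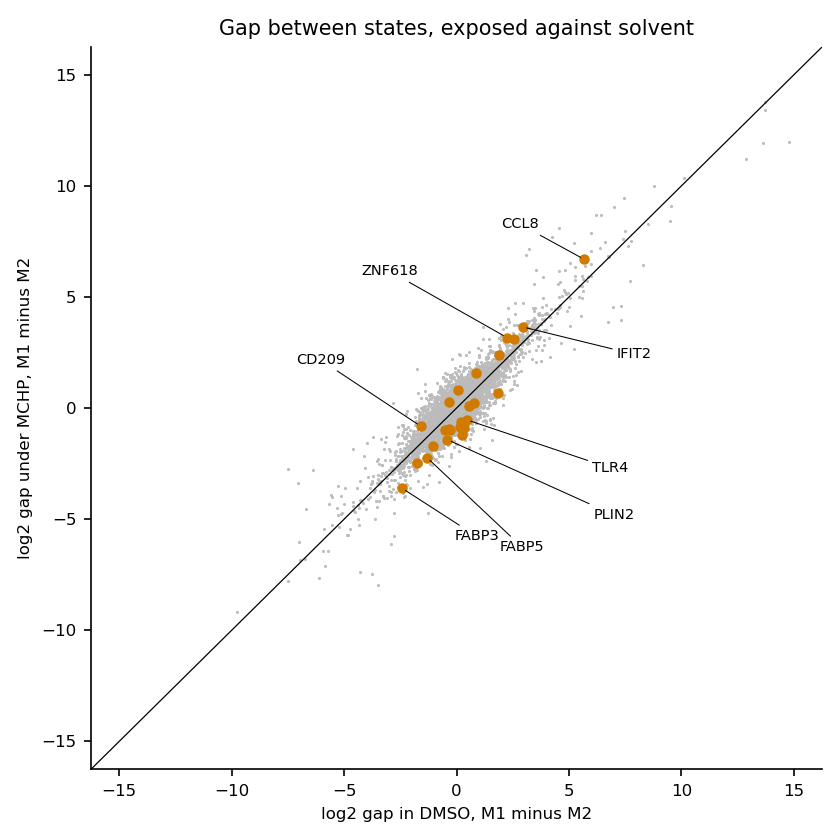
Log2 gap between M1 and M2 under MCHP (vertical axis) against the same gap in DMSO (horizontal axis) for the 15252 genes fitted over 12 libraries; orange points are the 25 genes whose gaps differed at an adjusted p under 0.05, and the line marks equal gaps. Most genes follow the line, PLIN2, FABP3, FABP5 and TLR4 lie below it, and CD209, CCL8, ZNF618 and IFIT2 lie above it.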

How the data were processed

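Poly-T purified mRNA of the 12 libraries was sequenced, and the authors deposited raw read counts per gene with the gene's position, length and biotype. Per the submitters' processing notes, which give no role or order, the tools included featureCounts 1.5.0-p3, HISAT2 2.0.5, fastp and, beside them, DESeq2 1.20.0 and StringTie 1.3.3b, and the build was hg38. The strand setting of the counting is not given in the sources used here, so reads of overlapping antisense genes cannot be told apart, and genes with near-identical copies (GBP1, HLA, CCL3 and CCL4, FCGR1A and FCGR2B, FABP5, NCF1, ALDOA, mitochondrial genes) are uncertain.

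From these counts the 6 exposed libraries were fitted alone with edgeR 4.0.16 (R 4.3.3): filterByExpr, TMM factors, the quasi-likelihood test with 4 residual degrees of freedom, and Benjamini-Hochberg adjustment over all 14435 genes. A fit of all 12 libraries (8 degrees of freedom) gave the gaps under MCHP and in DMSO and their difference. The 172 gene models that carry an identifier but no name took 0.0611% to 0.0763% of counts and stayed in. DESeq2 1.42.0, limma 3.58.1, DESeq2 size factors, library size alone, no filter, a minimum log2 difference of 1, a replicate block, coding genes only and leaving out each library were the alternatives. The scripts were tested on simulated data.

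Genes named are the 10 largest called differences in each direction among coding genes with at least 5 CPM and groups that do not overlap, up to 4 called members with the smallest p of each of 37 lists (700 genes) with the best member of the rarer direction, 73 fixed genes, and up to 10 genes in each direction for the difference of gaps. Other genes named (TLR3, TLR8, ACOD1, NOS2, IFNB1, CCL3, HK1, CD68, CSF1R, GAPDH, PKM, LDHA, HLA-DQA1, ABCG1, ACSL3, ACSL4, DGAT2, PNPLA2, PLIN3, C1DP1, MT-RNR2, MT-TL1, NXF1, RPP25 and the markers listed at 0) were chosen after their values were seen. The members and lists were chosen with earlier results of these data known. Promoters came from RefSeq (GRCh38.p14).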

Additional observations from a re-analysis of the deposited data

Results flagged for a closer look

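Of the genes named by rule, 20 had a gap between M1 and M2 that differed between MCHP and DMSO by the interaction test in the 12-library edgeR fit. The values that follow are the gap under MCHP minus the gap in DMSO, M1 minus M2 on the log2 scale. Toward a lower value under MCHP stood the lipid genes FABP3 at -1.19, PLIN2 at -1.02, FABP5 at -0.92 and SCARB1, which takes up cholesterol from lipoproteins, at -0.65. ACSL5 and HADHA, of fatty acid activation and oxidation, each stood at -0.48. The gap of HADHA widened, from -0.50 in DMSO to -0.98 under MCHP. That of ACSL5 narrowed, from 0.56 in DMSO to 0.074 under MCHP, where it was not called. The other genes with a lower value under MCHP were AOC3, an amine oxidase, at -1.24, TLR4 at -0.99, ADGRE3 at -0.85, SLC7A8 at -0.73 and TKTL1, a transketolase-like gene, at -0.69. Toward a higher value stood CCL8 at 1.01, ZNF618 at 0.93, CCL1 at 0.78, CD209 at 0.77, XIRP1 at 0.72, the interferon-stimulated gene IFIT2 at 0.71, CD83 at 0.57, LGALS9, a galectin, at 0.54 and NFKBIZ at 0.50.

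The call held in 19 of 20 other settings for CD209, PLIN2, ADGRE3, TLR4 and FABP3, and in 17 for CD83, TKTL1 and FABP5. It held in 16 for XIRP1, 13 for ACSL5, 12 for SCARB1, 11 for HADHA and IFIT2 and 10 for AOC3. It was lost in most settings for CCL1, CCL8 and SLC7A8, which kept it in 9, and for ZNF618, LGALS9 and NFKBIZ, which kept it in 8.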

How the results depend on the processing

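The 7605 calls between the exposed states ranged from 6870 to 7674 with 1 library left out, and from 6804 (12 libraries) to 8014 (11 libraries), with 6853 by DESeq2, over the other settings, apart from a test against a minimum log2 difference of 1, which called 1065. That test also gave 1065 against the 1874 called genes with a difference of at least 1 in the data. Library size alone moved the share higher in M1 from 48.6% to 38.1%. The count with the replicate block was 7354, and 24 for the difference of gaps. Correlations of deviations from the group mean ran from -0.014 to 0.004 for same-numbered M1 and M2 libraries. For unlike numbers they ran from -0.010 to 0.021. These values do not show whether same-numbered libraries shared a culture or a batch. Of the 193 named genes, 123 kept their side of the threshold under the minimum difference and 70 lost the call. Elsewhere the call was lost for CCL13 (adjusted p 0.079 with library size alone, 0.076 with DESeq2, 0.055 with the replicate block, 0.12 and 0.13 without M1 replicate 3 or 2, 0.23 without M2 replicate 2) and for FCGR2B, and gained for IRF8. The 25 called differences of gaps became 170 with no filter, 96 with DESeq2, 0 with a minimum difference of 1 (edgeR; 1349 at an unadjusted p under 0.05 without that minimum), and 5 to 385 with 1 library left out. No called difference of a named gene reversed its direction. The 3 libraries a group limit the difference of gaps, and counts near 0 limit markers such as MRC1 and CCL17.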

Other observations

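The split of calls between the exposed states differed among gene classes in number. Of 12136 protein-coding genes tested, 3267 were higher in M1 and 3530 in M2. Of 609 antisense genes, 116 were higher in M1 and 68 in M2, and of 342 processed pseudogenes, 43 were higher in M1 and 86 in M2. Of 470 lincRNA genes, 87 were higher in M1 and 80 in M2. Over all 14435 genes tested the shares were 25.6% higher in M1 and 27.1% higher in M2. Antisense, processed pseudogene and lincRNA genes were each called less often than this in both directions. Reads of antisense and pseudogene models can come from their partner or parent gene.

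The gap was called under both exposures with opposite sign for 7 genes. Besides TLR4, ADGRE3 and CD83 these were C1DP1, MT-TL1, NXF1 and RPP25, whose difference of gaps was not called over the 12 libraries. Without replicate 1 of M2 in DMSO it was called for MT-TL1 (adjusted p = 0.005), NXF1 (adjusted p = 0.012) and RPP25 (adjusted p = 0.0022) but not for C1DP1 (adjusted p = 0.077).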
